A study of Homo sapiens with 4 samples.

Results

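Argonaute-bound regions were examined in 7 genes whose proteins act downstream of Argonaute in microRNA-guided silencing: TNRC6A, TNRC6B, TNRC6C, CNOT6, CNOT6L, PAN3 and BTG2. A region belonged to a gene when it overlapped the gene's interval on hg19 and lay on the gene's strand. The rule itself uses no score, and the 7 genes were picked with earlier results of these data known. In all, 434 of the 211947 regions in the list met this rule. The list came from PAR-CLIP of HEK293, a human embryonic kidney cell line. In PAR-CLIP, cells incorporate a photoreactive uridine analogue into new RNA, ultraviolet light links this RNA to the proteins that hold it, and the RNA precipitated with 1 chosen protein is sequenced. The libraries were 3 from AGO1 and 1 from AGO2. AGO1 cells stably expressed proteins with His, FLAG and HA tags and received 200 µM 4-thiouridine, and AGO1 was precipitated through FLAG. AGO2 cells received 100 µM, and AGO2 was precipitated with antibody 11A9 against the protein itself. The AGO2 labels mention no tag, while the overall design describes tagged AGO1 or AGO2 lines. Labelling lasted 16 h and crosslinking was at 365 nm for both. An exogenously expressed AGO1 may differ in amount from the cell's own, and no library without crosslinking or with a control antibody was analysed here.

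Argonaute proteins carry microRNAs, which pair with target mRNAs mainly through their seed, the bases near the 5′ end. The TNRC6 proteins, also called GW182 proteins, are scaffolds that bind Argonaute through repeats of glycine and tryptophan and recruit the poly(A)-shortening enzymes. The PAN2-PAN3 complex, in which PAN3 is the adaptor, and the CCR4-NOT complex, in which CNOT6 and its paralogue CNOT6L are catalytic subunits, then remove the poly(A) tail. BTG2 is an antiproliferative protein that binds the CAF1 subunits of CCR4-NOT and stimulates deadenylation. The regions described here lie on the RNAs of these genes, so they concern the genes as possible targets of Argonaute and not the action of their proteins.

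Each region has a single score for the pooled libraries, a whole number from 1 to 1000 on a scale the sources do not define. AGO1 and AGO2 cannot be told apart in this list, values have no replicate error, and library depths are unknown. The amount of each RNA was not measured either, so more binding per molecule and more RNA cannot be told apart. The cell line could not be checked against its markers in such a list. Intervals of shares are Wilson intervals at 95%. They cover counting error only, and regions on 1 RNA are not independent of each other. None of the 434 regions stood at the ceiling of 1000, so their summed scores were not truncated.

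TNRC6B had the most regions, 134, followed by TNRC6A with 90, CNOT6 with 74, TNRC6C with 62, PAN3 with 33, BTG2 with 23 and CNOT6L with 18. The order by summed score differed. TNRC6A led with 860, then TNRC6B with 681, CNOT6 with 568, TNRC6C with 483, BTG2 with 166, PAN3 with 131 and CNOT6L with 41. The 3 TNRC6 genes together held 286 regions and a summed score of 2024, and the other 4 genes held 148 regions and a summed score of 906. On hg19 the intervals were chr16:24741049-24837547 for TNRC6A, chr22:40440821-40731812 for TNRC6B and chr17:76000318-76104916 for TNRC6C, all on the plus strand. Those of CNOT6, PAN3 and BTG2, also on the plus strand, were chr5:179921417-180005405, chr13:28712643-28869475 and chr1:203274664-203278729. CNOT6L lay on the minus strand at chr4:78634541-78740511. Interval lengths ranged from 4066 nt for BTG2 to 290992 nt for TNRC6B. Per 10 kb of interval, introns included, BTG2 had 56.6 regions, TNRC6A 9.33, CNOT6 8.81, TNRC6C 5.93, TNRC6B 4.60, PAN3 2.10 and CNOT6L 1.70.

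**Figure D1:**
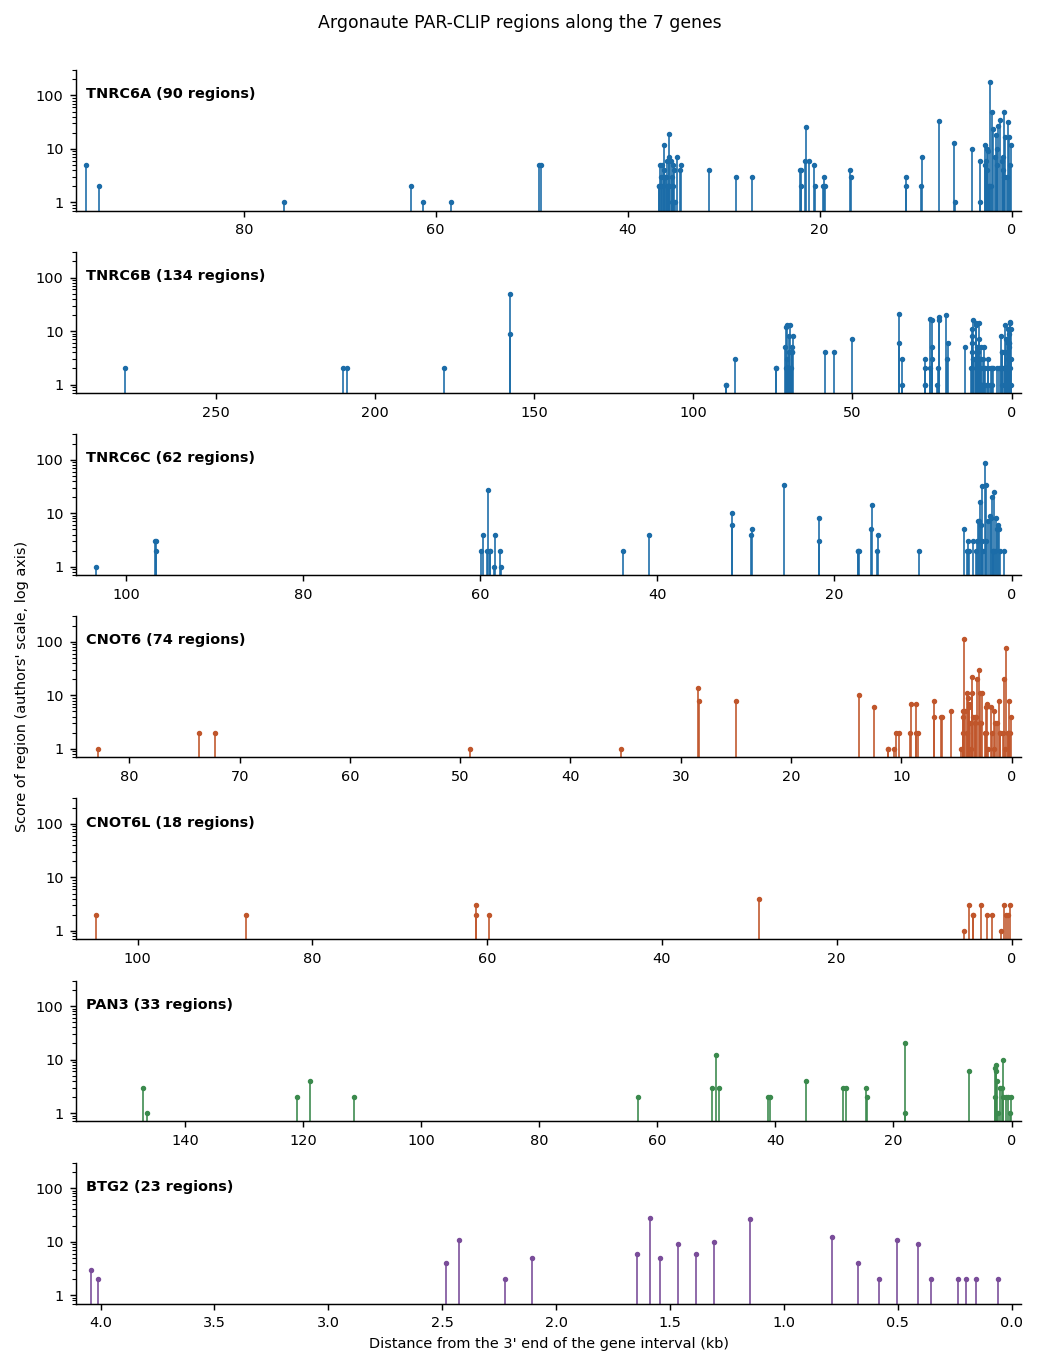
Score of each region (vertical log axis, authors' scale) against its distance from the 3′ end of the gene interval (horizontal axis, kb, 3′ end at the right), with 1 stem per region; the horizontal scale differs between genes and colours mark gene families. Regions crowd at the right edge, the 3 TNRC6 genes have a further cluster inside the gene, and no CNOT6L stem exceeds a score of 4.

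High scores made up a larger share of these regions than of the rest of the list, in a comparison without a test. Of the 434 regions, 71 had a score of 10 or more (16.4%, 13.2 to 20.1), against 23323 of the 211513 other regions (11.03%, 10.9 to 11.2). Over the whole list this share was 11.0%. The median score was 3 in both sets, with an upper quartile of 6 in the 7 genes and 5 elsewhere. By gene the share was 26.1% in BTG2 (6 of 23, 12.5 to 46.5), 22.2% in TNRC6A (20 of 90, 14.9 to 31.8), 16.2% in CNOT6 (12 of 74, 9.53 to 26.2), 16.1% in TNRC6C (10 of 62, 9.0 to 27.2) and 14.9% in TNRC6B (20 of 134, 9.87 to 21.9). It was 9.09% in PAN3 (3 of 33, 3.14 to 23.6), and no region of CNOT6L reached 10 (0 of 18, which allows a share of up to 16.7%, taken as 3 counts of the total). The intervals of the 6 genes with such regions overlap in all pairs. Shares exceeded the 11.0% of the whole list in 5 of the 7 genes, but only the intervals of TNRC6A and BTG2 lay wholly above it. Width and score had a Spearman's rho of 0.528 over the 434 regions and 0.453 over the other regions, a description without a test. By gene it ran from 0.704 in TNRC6A to 0.222 in PAN3 and 0.0554 in CNOT6L.

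**Figure D2:**
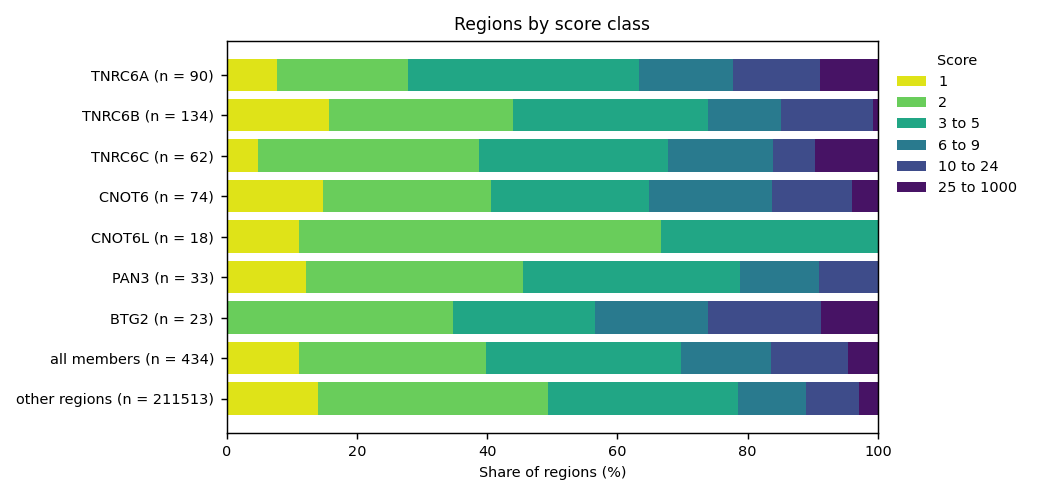
Share of regions (horizontal axis, %) in 6 classes of score for each gene, for all 434 regions of the 7 genes and for the 211513 other regions of the list, with n beside each name. Scores of 25 or more made up 8.89% in TNRC6A, 9.68% in TNRC6C and 8.70% in BTG2, and were not seen in CNOT6L or PAN3, against 2.90% among the other regions.

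Most regions of these genes lay in long runs, most of them at a 3′ end. Neighbouring regions on the same strand were joined into runs where the gap was 1000 nt or less. Runs of at least 10 regions held 299 of the 434 regions (68.9%, 64.4 to 73.1), against 40.3% of the other regions (40.1 to 40.6) and 40.4% of the whole list. There were 11 such runs, in 6 of the 7 genes, and CNOT6L had none. In PAN3 such a run held 14 of 33 regions (42.4%), a minority, unlike in the other genes with such runs. This count depends on the gap allowed. With gaps of up to 3000 nt all 7 genes had such a run, CNOT6L with 12 regions, and with gaps of up to 300 nt PAN3 and CNOT6L had none. Of the 11, 7 lay at the 3′ end of a gene and 4 lay inside TNRC6 genes. The largest run of every gene reached to within 10 kb of the 3′ end of its interval. For BTG2, whose interval is 4066 nt long, this and its place among the 7 were fixed by the length.

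**Figure D3:**
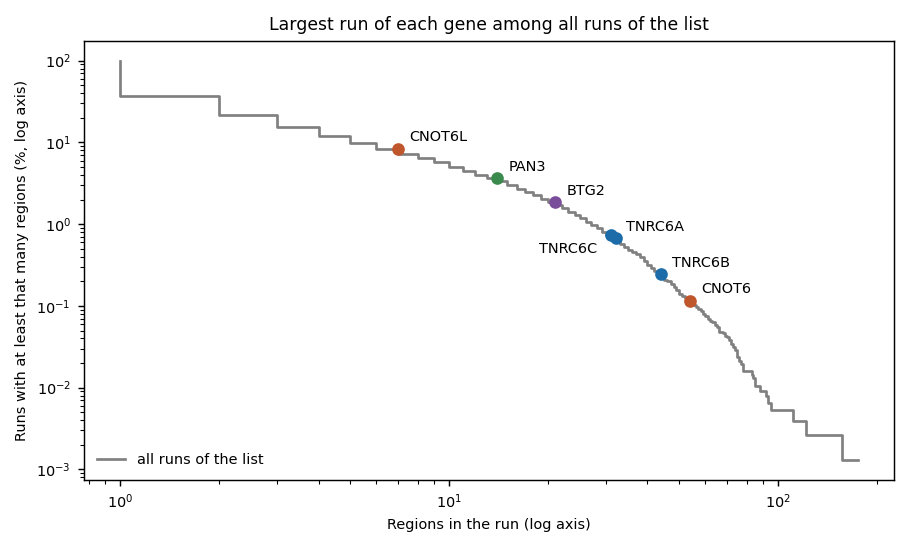
Share of all 76044 runs of the list (vertical log axis, %) that held at least a given number of regions (horizontal log axis), as a grey line, with the largest run of each gene as a point. CNOT6 with 54 regions lies farthest out, TNRC6B, TNRC6A and TNRC6C follow with 44, 32 and 31, and CNOT6L with 7 lies nearest the common small runs.

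The 3′ ends of the 6 genes longer than 50 kb held about as many regions as the remainder of these genes. The last 10 kb held 210 of their 411 regions (51.1%, 46.3 to 55.9) and 63.5% of their summed score, in 7.15% of their length. This amounted to 35 regions per 10 kb, against 2.58 per 10 kb in the remainder, introns included in both lengths. Scores of 10 or more were held by 39 of the 210 regions near the end (18.6%, 13.9 to 24.4) and 26 of the 201 others (12.9%, 8.98 to 18.3), and these intervals overlap. All 5 member regions with a score of at least 50 lay in the last 10 kb, in TNRC6A, TNRC6C and CNOT6. The highest region of a gene lay there in these 3 of the 6 genes only. In TNRC6B, where it had a score of 49, and in PAN3 and CNOT6L it lay farther inside. The last 10 kb is a distance only. Exons and 3′ untranslated regions were not annotated here, so a position near the end is not stated to be untranslated.

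**Figure D4:**
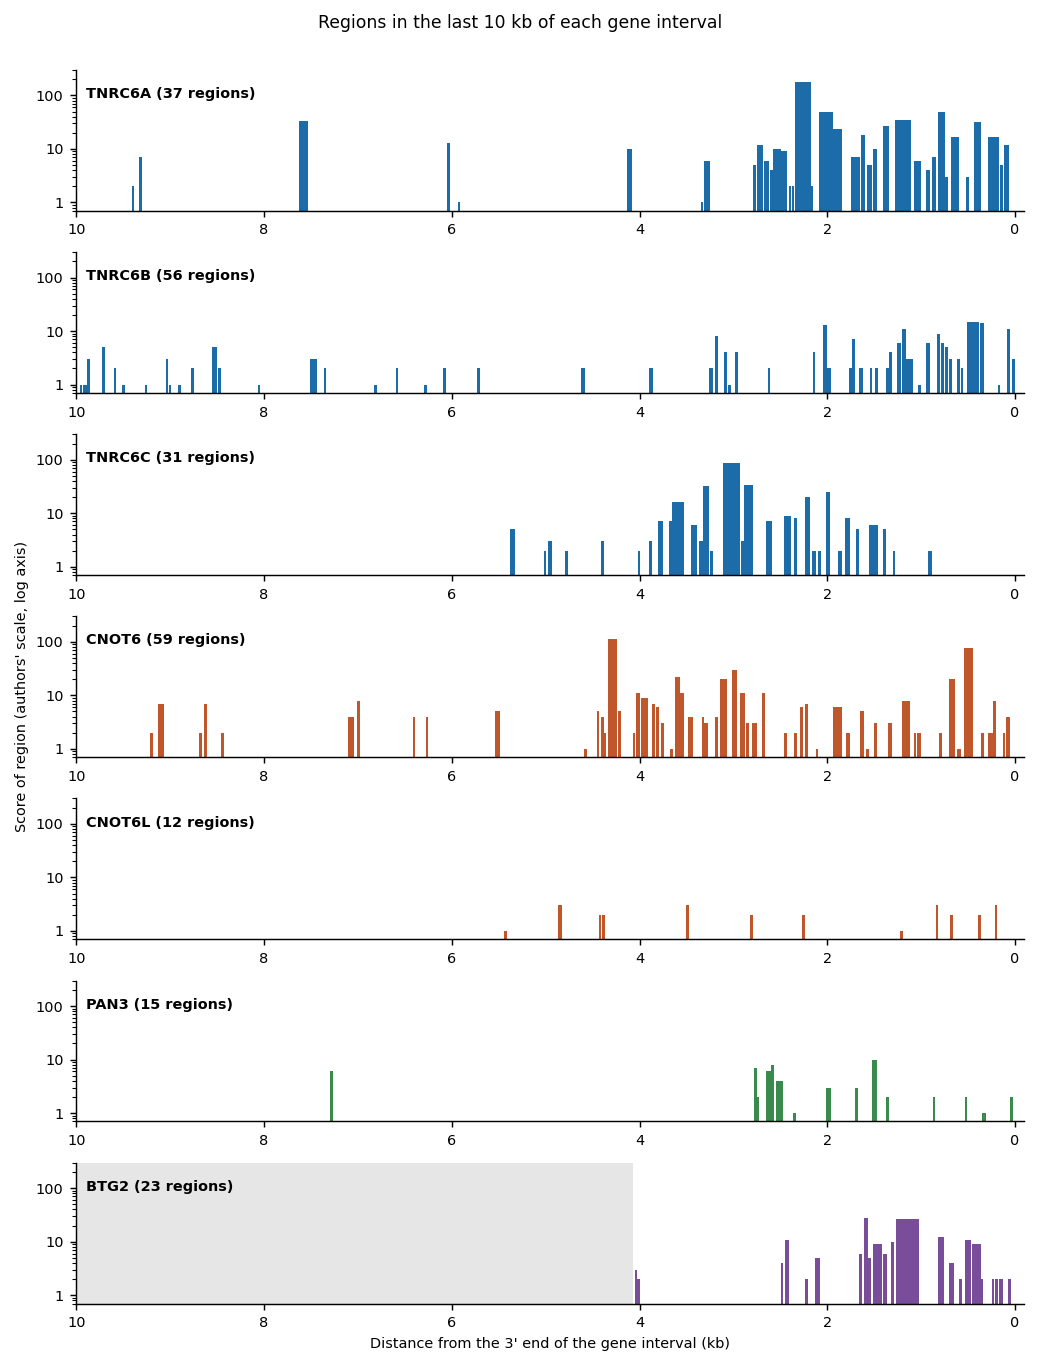
Regions in the last 10 kb of each interval, drawn at their position (horizontal axis, distance from the 3′ end in kb; bars at least 20 nt wide) and score (vertical log axis, authors' scale). The highest bars stand at 178 in TNRC6A, 112 in CNOT6 and 85 in TNRC6C; the grey part of the BTG2 panel lies outside its 4066-nt interval.

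TNRC6A, the protein first called GW182, carried the region of highest score among the members. That region, 166 nt wide at chr16:24835206-24835371 on the plus strand, had a score of 178 and ended 2176 nt before the end of the interval. It alone made up 20.7% of the summed score of the gene. The next were a region of 74 nt at chr16:24836726-24836799, with a score of 50, and a region of 145 nt at chr16:24835460-24835604, with a score of 49. All 3 belonged to a run of 32 regions that spanned 4067 nt up to 61 nt before the end of the interval. This run had a summed score of 578, or 67.2% of that of the gene, and its regions covered 50.7% of its span. Of the 76044 runs in the list, 517 held at least 32 regions and 109 had a summed score at least as high. The median score in the run was 8, against a median of 3 for the median scores of all 4320 runs of at least 10 regions. High scores were spread along it, since 15 of the 32 regions reached 10.

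TNRC6B, the paralogue with the longest interval, had many regions of low score at its 3′ end. The last 10 kb held 56 of its 134 regions (41.8%, 33.8 to 50.3) and 30.7% of its summed score, and the median score there was 2. A run of 44 regions, the largest of the gene, covered chr22:40719122-40726118, in which scores summed to 178 and reached 16 at most. A gap of 1069 nt separated it from a run of 34 regions that reached to 1 nt before the end of the interval, at chr22:40727188-40731811, in which they summed to 164 and reached 15 at most. Both runs hold no single dominant region. Each had a median score of 3, equal to the median of the median scores of all 4320 runs of at least 10 regions. Of the 76044 runs in the list, 1040 had a summed score at least as high as the former and 1157 as the latter. The region of highest score in TNRC6B lay elsewhere, 157668 nt before the end. At chr22:40574105-40574144 it was 40 nt wide and had a score of 49, and its neighbour at chr22:40574073-40574100 had a score of 9. No further region lay within 1000 nt of this pair. The next highest in the gene were 21 at chr22:40696509-40696585 and 20 at chr22:40711299-40711407.

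TNRC6C, the remaining paralogue, resembled TNRC6A in the share of its score at the 3′ end. Of its 62 regions, 31 lay in the last 10 kb (50%, 37.9 to 62.1), with 65.8% of the summed score. These 31 regions formed a single run at chr17:76099535-76104030, which stopped 886 nt before the end of the interval. Its highest region, 174 nt wide at chr17:76101811-76101984, had a score of 85, and the next in the run, 100 nt wide at chr17:76102029-76102128, had a score of 34. The other region with a score of 34, 69 nt wide at chr17:76079146-76079214, stood alone in its run, 25702 nt before the end. In the last 1 kb of the interval TNRC6C had 1 region, against 11 in TNRC6A and 12 in TNRC6B.

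All 3 TNRC6 genes also held a run of at least 10 regions deep inside the gene. In TNRC6A it had 27 regions at chr16:24800761-24803072, scores that summed to 120 and a highest of 19. In TNRC6B it had 21 regions at chr22:40660692-40663037, scores that summed to 97 and a highest of 13. In TNRC6C it had 10 regions at chr17:76044982-76047304, scores that summed to 47 and a highest of 27. Their nearest edges lay 34475, 68775 and 57612 nt before the end of the interval, in that order of genes. With regions joined at gaps of up to 1000 nt, the spans were alike at 2312, 2346 and 2323 nt. The number of regions in them was not alike. Regions covered 41.3% of the span in TNRC6A, 37.8% in TNRC6B and 13.0% in TNRC6C. Outside the TNRC6 genes no member had an internal run of this size. TNRC6A held a further internal run of 11 regions, at chr16:24815517-24818084, with a highest score of 26. The likeness of the spans depends on the gap allowed. At gaps of up to 300 nt the TNRC6C run splits, since its widest gap was 540 nt, and no run of 10 remains there. The widest gaps in the TNRC6A and TNRC6B runs were 263 and 204 nt, so these runs stay whole. At gaps of up to 3000 nt the TNRC6A run extends to chr16:24810520 and the TNRC6B run starts at chr22:40657850. The likeness was noticed after the values were seen, and whether these runs coincide with exons was not analysed here.

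**Figure D5:**
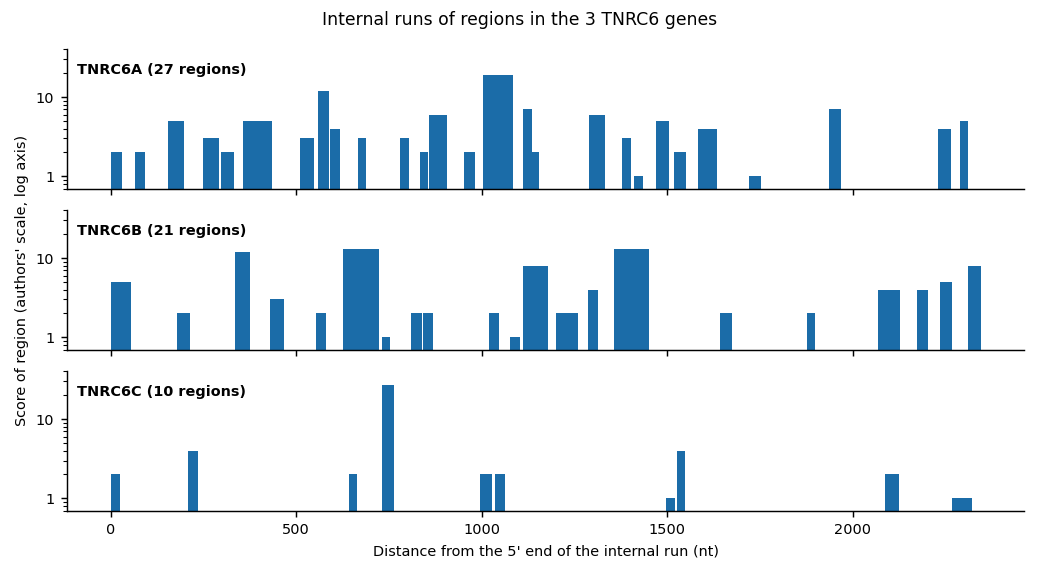
Regions of the internal run of each TNRC6 gene, aligned at the 5′ end of the run (horizontal axis, nt), with the score as bar height (vertical log axis, authors' scale). With regions joined at gaps of up to 1000 nt, the 3 runs end at 2312, 2346 and 2323 nt. They hold 27 regions in TNRC6A, 21 in TNRC6B and 10 in TNRC6C.

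CNOT6 and CNOT6L, paralogous nucleases of CCR4-NOT, differed in region number and in score. CNOT6 had 74 regions with a highest score of 112, and CNOT6L had 18 regions with a highest score of 4, in intervals of 83989 and 105971 nt. In the last 10 kb CNOT6 had 59 regions with a summed score of 508, and CNOT6L had 12 regions with a summed score of 26. CNOT6 showed the strongest concentration at the 3′ end among the genes longer than 50 kb, with 79.7% of its regions (69.2 to 87.3) and 89.4% of its summed score there. Without replicates the difference between these paralogues could not be set against experimental error.

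The run at the end of CNOT6 was the largest of any member. It held 54 regions over 7046 nt at chr5:179998306-180005351, with a summed score of 488. Of the 76044 runs of the list, 88 held at least as many regions, this run included. The region of highest score, 93 nt wide at chr5:180001075-180001167, had a score of 112 and ended 4238 nt before the end of the interval. The next, 95 nt wide at chr5:180004866-180004960, had a score of 76, and another, 59 nt wide at chr5:180002389-180002447, had a score of 30. The median score in the run was 4, against a median of 3 for the median scores of all 4320 runs of at least 10 regions. In it 10 of the 54 regions reached a score of 10.

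In CNOT6L, on the minus strand, all 18 scores lay between 1 and 4, and 12 of them were 1 or 2. The highest region was 31 nt wide at chr4:78663446-78663476, with a score of 4, and stood alone in its run. The next, at chr4:78638012-78638048 and chr4:78639371-78639404, had a score of 3 each and were the widest of several at that score. Toward the 3′ end, a run of 7 regions at chr4:78636777-78639984 and a run of 5 at chr4:78634732-78635762 together made up the 12 regions of the last 10 kb. Neighbouring regions in CNOT6L were a median of 549 nt apart, against 53 nt in CNOT6.

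PAN3, the adaptor that brings the PAN2 nuclease to its substrates, had a small run at its 3′ end and its highest scores outside it. The end run held 14 regions over 2763 nt at chr13:28866695-28869457, in which scores summed to 53 and the highest was 10, at chr13:28867951-28868004. The 2 regions of higher score were narrow and lay farther inside. The higher, at chr13:28851421-28851448, was 28 nt wide with a score of 20, 18027 nt before the end. The lower, at chr13:28819486-28819510, was 25 nt wide with a score of 12, 49965 nt before the end.

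BTG2, the shortest gene, held nearly all of its regions in its 3′ part. All but 2 of its 23 regions lay in a run of 21 over 2455 nt at chr1:203276234-203278688, which held 97.0% of the summed score and had 46.4% of its span covered. The median score over the gene was 5, the highest median of the 7 genes, and no region had a score of 1. The highest scores were 28 for a region of 35 nt at chr1:203277125-203277159 and 27 for a region of 248 nt at chr1:203277457-203277704, the widest of all 434. Another, at chr1:203277912-203277974, had a score of 12. The other 2 regions lay at the start of the interval, 13 and 41 nt from it, with scores of 3 and 2.

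Windows of equal length allow the 3′ ends to be compared per length. Within the last 4066 nt, the length of the whole BTG2 interval, CNOT6 had 43 regions, TNRC6B 33, TNRC6A 31, TNRC6C 26, BTG2 23, PAN3 14 and CNOT6L 8. By summed score in that window the order was TNRC6A with 568, CNOT6 with 334, TNRC6C with 303, BTG2 with 166, TNRC6B with 162, PAN3 with 53 and CNOT6L with 18. The CNOT6 region with a score of 112 lay just outside this window. Within the last 5000 nt the summed score was 578 in TNRC6A, 463 in CNOT6 and 313 in TNRC6C. The share of the window covered by regions was 49.6% in TNRC6A, 44.9% in CNOT6, 35.3% in TNRC6C, 30.4% in TNRC6B, 29.2% in BTG2, 13.3% in PAN3 and 5.85% in CNOT6L. TNRC6B had 2 regions more than TNRC6A in the same length, at the lower summed score.

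Member regions lie on the strand of the gene by the rule, and regions of the list were sparse just outside the intervals. No region lay on the opposite strand within any of the 7 intervals. No member region had an opposite-strand region within 1000 nt (0 of 434, which allows a share of up to 0.691% on the same basis of 3 counts), against 4.30% of the other regions and 4.29% of the whole list. That bound takes the regions as independent, but they lie in 7 genes, so it is too low. The 0 also largely repeats the absence of opposite-strand regions inside the intervals. In the 10 kb before and after each interval, 1 region lay on the gene's strand, with a score of 1, 39 nt before the TNRC6A interval, and 2 lay on the opposite strand, both past the 3′ end of TNRC6C. The same-strand count was 0.0714 per 10 kb of flank (exact Poisson interval 0.00181 to 0.398, counting error only), against 5.15 per 10 kb inside the intervals. Farther out, 7 regions lay from 10780 nt to less than 20 kb past the TNRC6B interval on its strand, with scores that summed to 47 and a highest of 35, and these were not counted as members. The TNRC6A and TNRC6C intervals have 44.7% and 69.1% of the length of these genes in the RefSeq annotation of GRCh38.p14, whereas the other 5 lie between 99.1% and 100.0%. Longer annotated forms of both genes were then covered only in part, and where the additional length lies was not resolved. In that annotation, a different build, 4 other genes overlap PAN3, 3 overlap TNRC6C, 2 overlap TNRC6B, 1 each overlaps TNRC6A and CNOT6, and none overlaps CNOT6L or BTG2. Whether member regions lie in them was not tested.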

How the data were processed

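The data were a single list of regions on hg19 from 4 PAR-CLIP libraries. The aligner BWA 0.5.8c and the build hg19 are named per the submitters' processing notes. Per the file headers, the library set was called AGO_good and a filter named with 0.05 had been applied. Neither the region caller nor the pooled libraries are stated. Each region's score is the authors' deposited value, with no unit stated. Starts, ends and inner 1-nt positions are other deposited columns, genomic coordinates per the file headers, printed counting from 1.

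The 7 gene intervals and their strands were given with the member list. The members, the alternatives and the measures were chosen with earlier results of these data known. All 7 genes are named, each with its 3 regions of highest score and its runs of at least 10 regions. Runs joined regions of 1 strand at gaps of up to 1000 nt. No test was run, because no value exists per library, and AGO1 was not compared with AGO2. Other genes of the pathway were not analysed here, since no hg19 annotation was used, and no sequence is printed, since no hg19 sequence was used. RefSeq names came from GRCh38.p14, where all 7 symbols matched. Functions for overlap, runs and strands were tested on simulated regions. Alternatives changed the score minimum, overlap rule, end window, run gap, flank or genes used. Computation used numpy 2.4.6, scipy 1.17.1 and pandas 2.3.3 under Python 3.11.15, with matplotlib 3.10.9 for figures.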

Additional observations from a re-analysis of the deposited data

How the results depend on the processing

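No paired analysis was possible because the list gives pooled scores with no value per library. Yardsticks were 1.5 times for a count and the 95% interval of the value for the rest, which covers counting error only. For shares of summed score, the interval was that of an equal share of regions. It does not measure the spread of a share of score, so for these shares the yardstick is only a rough guide. Of 45 alternatives for the comparisons, 31 stayed within the yardsticks and 14 did not. Of 77 for single genes, 64 stayed and 13 did not. The number of member regions (434) was 261 at scores of 3 or more, and stayed at 434 under both other overlap rules. The share of regions in the last 10 kb (51.1%) was 41.4% in the last 5000 nt, 62.8% in the last 20000 nt and 44.8% without CNOT6. The share of summed score there (63.5%) was 57.7%, 72.1% and 56.7% under these settings, and 74.2% without TNRC6B. A longer window must hold at least as many regions. Leaving out a gene and extending the intervals were chosen after the data were seen. The share at a score of at least 10 (16.4%) was 37.3% at a threshold of 5, against 27.0% of the other regions. At gaps of 300 nt the largest run held 28 regions in TNRC6B, 4 in CNOT6L and 6 in PAN3. At gaps of 3000 nt it held 79 in TNRC6B, whose 2 end runs then join, and 12 in CNOT6L. A score minimum cannot raise the opposite-strand count above 0, so the 2 such alternatives among the 31 say nothing of it. The flank count was 0.297 per 10 kb with flanks of each gene's own length. Unknown library depth limits every value.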

Other observations

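Within the first 1 kb of the interval, TNRC6A had 1 region, with a score of 5, and BTG2 had 2, with a highest score of 3. TNRC6B, TNRC6C, CNOT6, CNOT6L and PAN3 had none there. Together these 7 windows held 4.29 regions per 10 kb, against 5.15 over the whole intervals. Whether the starts of the TNRC6A and TNRC6C intervals are the 5′ ends of their longer annotated forms was not resolved.

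Wide regions were found in 4 of the 7 genes. Of the 11 member regions at least 100 nt wide, 5 lay in TNRC6A, 3 in TNRC6C, 2 in TNRC6B and 1 in BTG2. They made up 2.53% of the member regions, against 1.81% of the other regions of the list.

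Spacing set CNOT6L and PAN3 apart from the other 5 genes. Neighbours were a median of 31.5 nt apart in BTG2, 46 nt in TNRC6A, 53 nt in CNOT6, 58 nt in TNRC6B and 81 nt in TNRC6C, and 463.5 nt in PAN3 and 549 nt in CNOT6L. Gaps of at most 100 nt made up 81.8% of the gaps in BTG2 and 11.8% in CNOT6L. Whether regions so close are separate binding sites was not tested.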
